A study of Danio rerio with 16 samples.

Results

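Growth factor ligands, receptor tyrosine kinases and the Sprouty and SPRED inhibitors that act below them were followed in adult zebrafish hearts. Members were taken by symbol. They are the genes whose name starts with fgf, pdgf, vegf, erbb, nrg and a digit, egfr, hbegf, areg, hgf, angpt, kita, kitb, kitlg, spry or spred, or is met or tek. The rule found 45 of the 14500 genes in the deposited table. Of these, 41 belong to 9 signalling branches: 12 FGF, 3 EGF, 2 neuregulin and ERBB, 2 HGF and MET, 1 KIT, 5 PDGF, 3 VEGF, 8 angiopoietin, and 5 Sprouty and SPRED genes. The other 4, fgfr1op2, spryd4 and 2 identifiers named spryd7, only share letters with the families, since the SPRY domain is unrelated to Sprouty. A symbol was given for 11702 identifiers and none for 2798, so further members may lie among the unnamed ones. In the table of gene names 108 identifiers fit the rule. Of these, 63 have no row in the deposited table, nrg1 among them, and were not analysed here. Counts by branch or role therefore cover only the members with a row.

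Fish were 6 to 9 months old, and the hearts of 3 fish were pooled for each library of polyadenylated RNA. The 4 groups were KO cryoinjury, WT cryoinjury, KO control and WT control, with 4 libraries each. KO stands for the fish labelled Tert (AB/hu3430) KO mutant and WT for those labelled WT. Cryoinjury, in which a cold probe kills part of the ventricle, was done 3 days before sampling, and controls had no such injury. The series asks how hearts respond to injury with and without telomerase. The hu3430 allele is a point mutation, and the labels do not give the generation of the mutants.

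As background, receptor tyrosine kinases span the cell membrane and are switched on when a secreted ligand pairs them. The signal then runs through adaptors to RAS, RAF and ERK and to PI3 kinase and AKT. Sprouty and SPRED proteins, which ERK signalling itself induces, damp the RAS step. In the zebrafish heart, neuregulin acting on ERBB receptors is known to drive cardiomyocyte division, FGF and PDGF signals act on epicardial cells, and VEGF and angiopoietin act on vessels.

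Values are in the authors' normalized units, not scaled to gene length, so they are compared between groups and not between genes. Fold changes are differences on the log2(units + 1) scale, which understates the change of low genes. Genes with a limma p adjusted by Benjamini-Hochberg over all 14500 genes under 0.05 are called. Libraries held 5611576 to 14831664 reads over the listed genes. Of the 45 members, 15 had at least 100 reads in every library, and 11 had a library with under 10 reads, where small differences are not detectable. The cardiac myosin light chain gene myl7 was at 10390 units or more in every library. The transcript of tert was at 5.65 to 6.84 units in the KO libraries and 1.19 to 5.16 units in the WT libraries. A point mutation leaves the transcript countable, so these values do not test the loss of the protein. KO cryoinjury libraries 1 and 2 stood apart by the skin keratin gene krt5, at 337 and 887 units, against 12.02 and 75.4 units in libraries 3 and 4 of that group and at most 67.4 units elsewhere. These libraries also had the lowest summed cardiomyocyte markers of their group, at 42644 and 42979.5 units against 55965 and 58752 units, and the highest summed neutrophil markers, at 207 and 787 units against 124 and 119.7 units. Their part in the results was not tested beyond leaving them out.

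Cryoinjury moved members in both directions. In KO hearts 10 of the 45 members rose and 9 fell, which is 42.2% of them, while 47.6% of all genes were called. In WT hearts 11 rose and 13 fell, which is 53.3%, while 45.9% of all genes were called. By direction, 25.2% of all genes rose and 22.4% fell in KO hearts, and 24.2% rose and 21.7% fell in WT hearts. The shares of members called were near those of the whole table. In KO hearts 10 members had all 4 injured libraries above all 4 controls and 8 had them below, which was so for 22.1% and 18.5% of all genes. In WT hearts 8 members lay above and 9 below, beside 22.9% and 20.4% of all genes. The median log2 change of the members was 0.00 in KO hearts and -0.04 in WT hearts, beside -0.02 and -0.01 over all genes. All 19 members called in KO hearts were called in WT hearts with the same direction. The other 5, called in WT hearts, were angptl1, which rose, and angpt1, angptl7, tek and spryd4, which fell. None of the 45 was shown to differ between the genotypes in its response, as described below.

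Directions depend on how libraries are scaled to each other. Scaling to library totals alone moved the median log2 change of all genes by 0.21 in KO hearts and 0.31 in WT hearts. The member calls then became 16 higher and 6 lower in KO hearts, and 18 higher and 5 lower in WT hearts. Called higher on that scale, and not among the calls above, were fgfrl1, pdgfd, spred1, vegfc, angptl1 and angptl2b in KO hearts. In WT hearts these were fgfr2, pdgfra, pdgfrl, spry4, vegfc, angptl2b and spryd7 (ENSDARG00000052624). Of the KO genes, pdgfd, vegfc, angptl1 and angptl2b also passed in other alternatives, as given below. Calls lost on the scale of library totals were spred2a, erbb2 and spryd7 (ENSDARG00000069485) in both genotypes, and pdgfbb, angpt1, angptl7, tek and spryd4 in WT hearts. Changes are therefore read relative to the scale of the deposited values, whose correction is not stated. DESeq2 size factors, which correct for composition, moved the same medians by -0.0012 in KO and 0.0007 in WT hearts. Below, no composition correction means scaling to library totals alone.

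**Figure D1:**
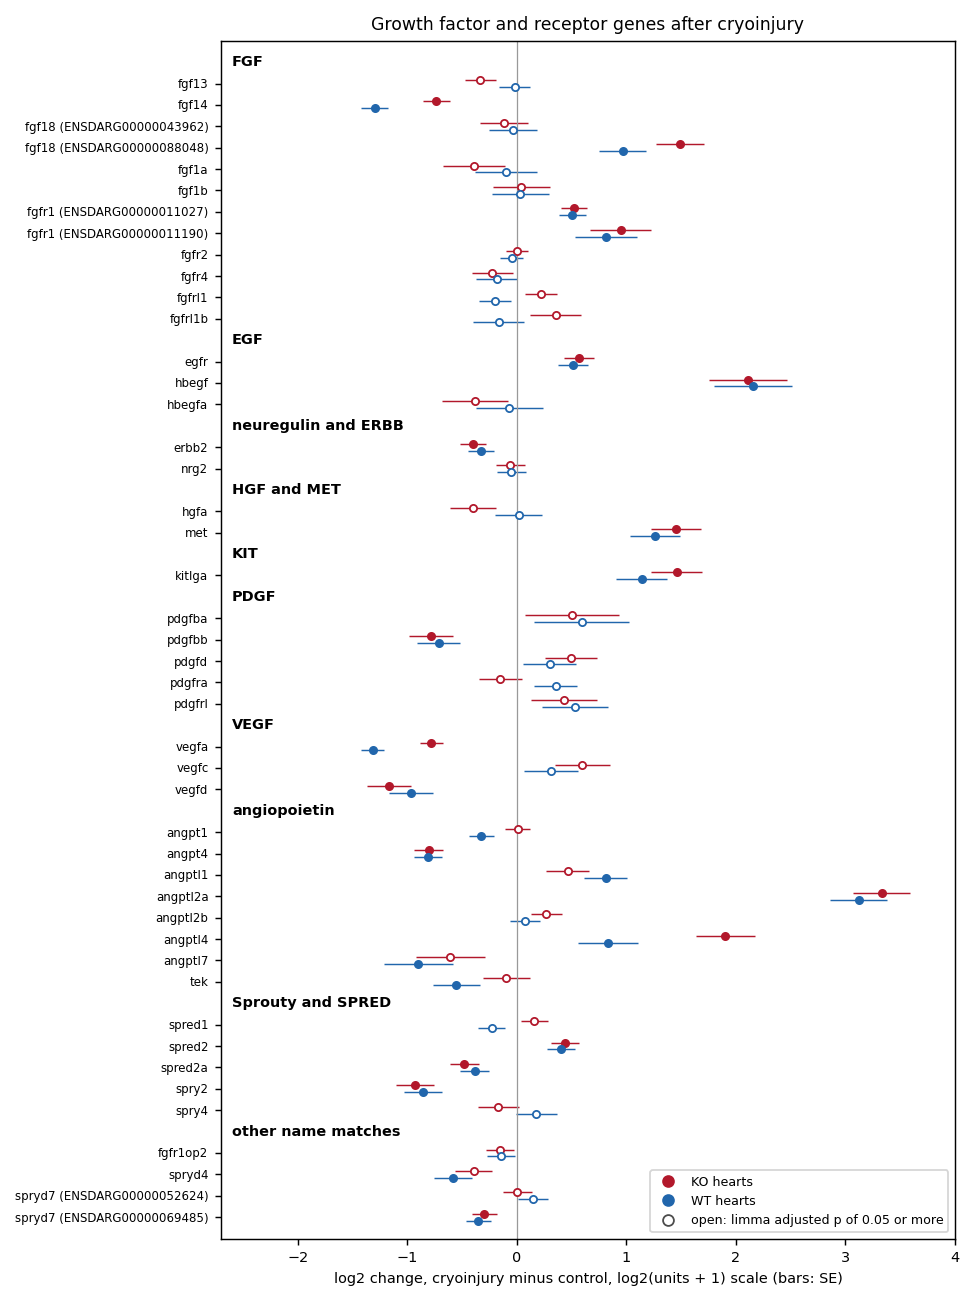
Log2 change after cryoinjury of the 45 members in KO hearts (red) and WT hearts (blue), by branch, on the log2(units + 1) scale, with bars for the standard error and filled points for calls. angptl2a, hbegf, angptl4, fgf18 (ENSDARG00000088048), met and kitlga lie farthest to the right in KO hearts, and vegfa and fgf14 farthest to the left in WT hearts.

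Among ligands, hbegf, kitlga and one fgf18 gene rose. The gene hbegf encodes heparin-binding EGF-like growth factor, a membrane-anchored ligand of EGFR and ERBB4 in mammals. It read 9.30, 18.1, 10.01 and 4.23 units in KO cryoinjury libraries 1 to 4 and 8.80, 8.50, 5.99 and 17.6 units in WT cryoinjury libraries. In controls it read 1.201, 1.08, 1.37 and 1.96 units in KO and 1.24, 2.50, 0.386 and 1.83 units in WT hearts. All 8 injured libraries lay above all 8 control libraries. The log2 change was 2.12 in KO hearts (SE 0.36, limma adjusted p = 0.00011) and 2.16 in WT hearts (SE 0.36, limma adjusted p = 8.47e-05). Control libraries held 3 to 19 hbegf reads and injured libraries 38 to 294. Without KO cryoinjury libraries 1 and 2 the change in KO hearts was 1.67 (limma adjusted p = 0.00387).

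The kitlga gene encodes a Kit ligand, a factor for pigment, germ and blood-forming cells. Its values were 9.76, 10.7, 9.68 and 7.57 units in KO cryoinjury and 9.15, 10.6, 6.68 and 7.31 units in WT cryoinjury libraries. Against these stood 2.55, 1.35, 4.57 and 3.33 units in KO control and 3.71, 4.61, 2.70 and 2.25 units in WT control libraries. Again no injured library overlapped a control library. The change was 1.46 in KO hearts (SE 0.23, limma adjusted p = 6.62e-05) and 1.14 in WT hearts (SE 0.23, limma adjusted p = 0.000637).

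The symbol fgf18, of a secreted FGF, belongs to 2 identifiers. fgf18 (ENSDARG00000088048) read 3.20, 5.06, 7.18 and 4.68 units in KO cryoinjury and 4.10, 5.66, 3.73 and 5.82 units in WT cryoinjury libraries. Its control values were 0.901, 1.08, 1.68 and 0.784 units in KO and 1.77, 1.32, 2.96 and 1.97 units in WT hearts. The injured libraries were all above the controls, with changes of 1.49 in KO hearts (SE 0.22, limma adjusted p = 2.8e-05) and 0.97 in WT hearts (SE 0.22, limma adjusted p = 0.00153). fgf18 (ENSDARG00000043962) lay between 1.01 and 3.05 units over all 16 libraries and passed in neither genotype.

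Of the 9 receptors among the members, 4 rose in both genotypes: met, egfr and both identifiers named fgfr1. Another 1 fell in KO hearts and 2 fell in WT hearts. Of all genes 25.2% rose and 22.4% fell in KO hearts, and 24.2% rose and 21.7% fell in WT hearts. The receptor of hepatocyte growth factor, met, read 2.44, 5.35, 2.50 and 2.56 units in KO cryoinjury and 2.70, 3.21, 1.77 and 2.40 units in WT cryoinjury libraries. In controls it stayed under 1 unit, at 0.150, 0.808, 0.305 and 0.784 units in KO and 0.354, 0.659, 0.386 and 0.421 units in WT hearts. It changed by 1.45 in KO hearts (SE 0.23, limma adjusted p = 5.27e-05) and 1.26 in WT hearts (SE 0.23, limma adjusted p = 0.000195). Those control values rest on 1 to 6 reads a library, so the size of the rise is known only roughly. KO cryoinjury library 2, 1 of the 2 with high krt5, was the highest, and without both the change in KO hearts was 1.25 (limma adjusted p = 0.000966). Its ligand gene hgfa had changes of -0.40 in KO and 0.02 in WT hearts (limma adjusted p = 0.128 and 0.957), within 2.08 to 6.60 units over all libraries, and was called in KO hearts only without KO control library 3 (-0.55, limma adjusted p = 0.0434).

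The EGF receptor gene egfr read 18.6, 21.5, 12.4 and 16.6 units in KO cryoinjury and 16.2, 17.1, 19.5 and 15.9 units in WT cryoinjury libraries. It read 10.2, 11.04, 10.98 and 12.4 units in KO control and 11.1, 11.7, 10.6 and 13.5 units in WT control libraries. Groups were apart in WT hearts, whereas in KO hearts the lowest injured library equalled the highest control to 3 digits. The changes were 0.57 (SE 0.14, limma adjusted p = 0.00247) in KO and 0.52 (SE 0.14, limma adjusted p = 0.00474) in WT hearts. The KO call ended when KO cryoinjury libraries 1 and 2, those with high krt5, were both left out (0.34, limma adjusted p = 0.0729). It held when either was left out alone. Whether the smaller number of libraries or their krt5 level mattered was not tested.

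For FGF receptors, fgfr1 (ENSDARG00000011027) read 14.8, 17.8, 17.2 and 16.7 units in KO cryoinjury and 14.5, 17.1, 18.9 and 13.7 units in WT cryoinjury libraries. Control values were 11.9, 10.8, 11.7 and 10.6 units in KO and 14.0, 10.4, 9.65 and 10.1 units in WT hearts. The groups were apart in KO hearts and overlapped in WT hearts, and the change was 0.52 in KO (SE 0.12, limma adjusted p = 0.00194) and 0.51 in WT hearts (SE 0.12, limma adjusted p = 0.00249). fgfr1 (ENSDARG00000011190) was low, at 2.00 to 3.12 units in KO cryoinjury, 1.13 to 3.42 in WT cryoinjury, 0.1961 to 1.22 in KO control and 0.129 to 1.41 in WT control libraries. It rose by 0.95 and 0.82 in KO and WT hearts (limma adjusted p = 0.0103 and 0.0244). The WT call ended without WT cryoinjury library 4 (0.61, limma adjusted p = 0.0971), WT control library 3 (0.64, limma adjusted p = 0.0887) or WT control library 4 (0.70, limma adjusted p = 0.0735).

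**Figure D2:**
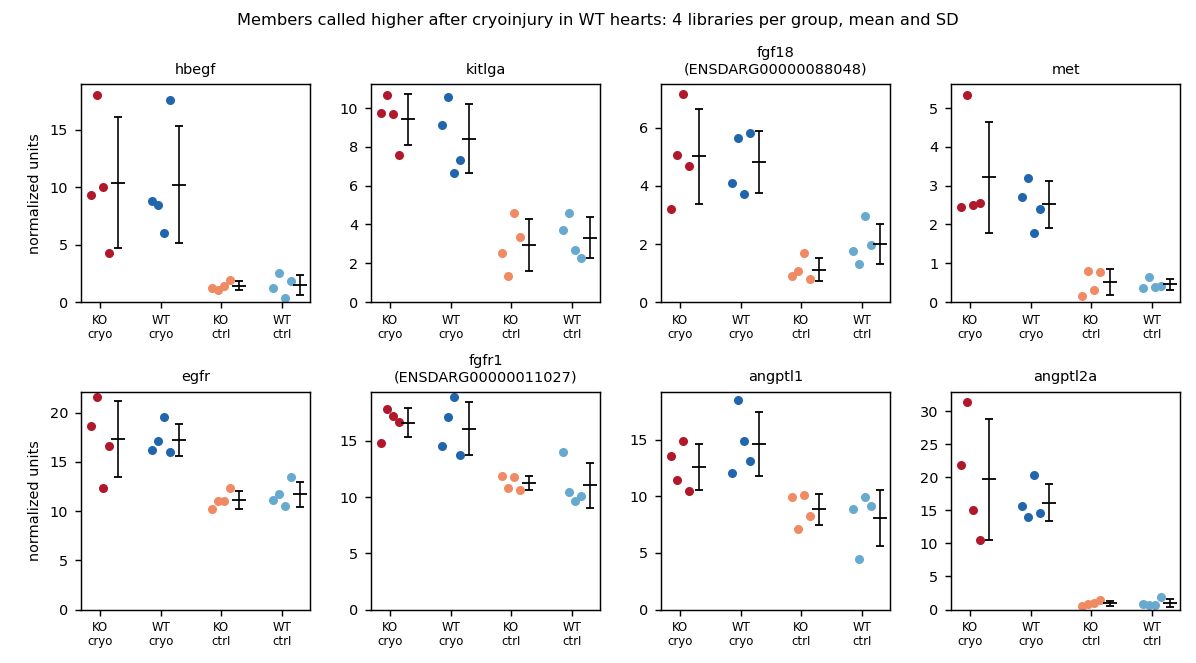
Normalized units in each library for 8 members called higher after cryoinjury in WT hearts; from left, KO cryoinjury, WT cryoinjury, KO control and WT control, with points for libraries and bars for the mean and SD (n = 4). For hbegf, kitlga, fgf18 (ENSDARG00000088048), met, angptl1 and angptl2a every injured library lies above every control library.

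In the VEGF branch, 2 of the 3 ligands fell in each genotype, beside 22.4% of all genes in KO and 21.7% in WT hearts. With 3 genes, no result for the branch is read from the count. Vegfa is the main growth signal for blood vessel endothelium. Only 1 identifier, ENSDARG00000034700, carried the symbol vegfa, and any other copy of the gene was not analysed here. The vegfa gene read 149, 135, 134 and 141 units in KO cryoinjury libraries 1 to 4 and 97.1, 116, 94.3 and 95.9 units in WT cryoinjury libraries. KO control libraries had 255, 189.6, 246 and 281 units and WT control libraries 274, 247, 237 and 251 units. The 8 injured libraries lay below the 8 controls, with changes of -0.78 in KO hearts (SE 0.10, limma adjusted p = 9.62e-06) and -1.32 in WT hearts (SE 0.10, limma adjusted p = 2.96e-08). In ratio of means, injured hearts held 0.575 of the control level in KO and 0.400 in WT. The group means were 139.7 ± 7.16, 101 ± 10.4, 243 ± 38.4 and 252 ± 15.4 units in KO cryoinjury, WT cryoinjury, KO control and WT control (SD, n = 4 each).

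A second ligand, vegfd, which in mammals acts mainly on lymphatic endothelium, read 2.59, 2.02, 3.84 and 4.01 units in KO cryoinjury and 1.64, 2.74, 2.75 and 1.92 units in WT cryoinjury libraries. Controls read 7.96, 9.02, 8.23 and 7.06 units in KO and 6.54, 6.98, 3.73 and 4.50 units in WT hearts. Within each genotype injured and control libraries did not overlap, and the change was -1.17 in KO (SE 0.20, limma adjusted p = 0.000133) and -0.96 in WT hearts (SE 0.20, limma adjusted p = 0.000726). The lymphatic ligand gene vegfc went the other way without passing, at 0.60 in KO and 0.32 in WT hearts (limma adjusted p = 0.0552 and 0.317). The KO value passed without KO cryoinjury library 3, KO control library 3 or WT cryoinjury library 4 (0.71, 0.83 and 0.60, limma adjusted p = 0.0383, 0.00817 and 0.0363). The receptor genes lie outside the symbol rule and are given for context, chosen after their values were seen. Of them, flt1 changed by -0.12 in KO and -0.27 in WT hearts, and kdr by -0.27 and -0.17, none of these past the threshold (limma adjusted p of 0.139 to 0.498). The receptor names kdrl and flt4 matched no named gene of the table and were not analysed. The coreceptor gene nrp2 was lower, at -0.42 in KO and -0.69 in WT hearts (limma adjusted p = 0.0488 and 0.00291).

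The tissue changed alongside, with 25.2% of all genes higher and 22.4% lower in KO hearts and 24.2% and 21.7% in WT hearts. Cardiomyocyte markers, of which 9 of 11 fell and 1 rose in each genotype, summed to 42644 to 58752 units in KO cryoinjury, 45606 to 49011 in WT cryoinjury, 67949.7 to 84557 in KO control and 79881 to 90759 in WT control libraries. Their part in the fall of vegfa or of any other member was not tested. In whole hearts, fewer cells of a type and less RNA per cell cannot be told apart. Endothelial and endocardial markers were flatter, with 3 of 14 higher and 2 lower in KO hearts and 3 higher and 3 lower in WT hearts, tek being 1 of the 14. Their sums were 1102 to 1416 units in KO cryoinjury, 1274 to 1687 in WT cryoinjury, 1149 to 1349 in KO control and 1403 to 1488 in WT control libraries.

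Angiopoietins act on the endothelial receptor Tek, also called Tie2. The ligand gene angpt4 fell in both genotypes. It read 52.8, 62.9, 65.3 and 72.8 units in KO cryoinjury and 74.5, 56.9, 78.7 and 57.3 units in WT cryoinjury libraries, against 118, 100.4, 105 and 122 units in KO control and 131, 97.4, 135 and 108 units in WT control libraries. No injured library reached a control library, and the change was -0.81 in KO (SE 0.13, limma adjusted p = 7.53e-05) and -0.81 in WT hearts (SE 0.13, limma adjusted p = 6.63e-05).

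Smaller falls in WT hearts concerned angpt1, the activating ligand of Tek, and tek. angpt1 was at 29.96 to 44.7 units in KO cryoinjury, 29.9 to 32.4 in WT cryoinjury, 35.0 to 41.9 in KO control and 34.8 to 43.0 in WT control libraries. Its change was 0.01 in KO hearts (limma adjusted p = 0.964) and -0.32 in WT hearts (limma adjusted p = 0.0306). tek was at 60.6 to 109 units in KO cryoinjury, 46.5 to 79.0 in WT cryoinjury, 71.8 to 107 in KO control and 63.0 to 125 in WT control libraries, so groups overlapped in both genotypes. The tek change was -0.09 in KO hearts (limma adjusted p = 0.743) and -0.55 in WT hearts (limma adjusted p = 0.0448). Neither WT call is firm. With no composition correction angpt1 stood at 0.02 (limma adjusted p = 0.893), and its call also ended without WT cryoinjury library 1 or 2 or WT control library 2 or 4 (limma adjusted p up to 0.0852). The tek call ended without WT cryoinjury library 1, 2 or 3, WT control library 3 or 4, KO cryoinjury library 1 or 3, or KO control library 2 or 3 (limma adjusted p up to 0.171, with a change of -0.36 without WT control library 3). The related receptor gene tie1 was at -0.48 in KO and -0.40 in WT hearts (limma adjusted p = 0.000285 and 0.00152).

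The 5 angiopoietin-like genes encode secreted proteins with the angiopoietin fold that are not known as Tek ligands, and they held the largest rise among the members. angptl2a, whose mammalian counterpart is tied to inflammation, read 21.8, 31.4, 15.02 and 10.5 units in KO cryoinjury and 15.7, 14.1, 20.3 and 14.6 units in WT cryoinjury libraries. In controls it read 0.6004, 0.808, 0.915 and 1.37 units in KO and 0.884, 0.659, 0.644 and 1.83 units in WT hearts. The injured and control libraries were far apart, at 3.33 in KO (SE 0.26, limma adjusted p = 2.87e-08) and 3.12 in WT hearts (SE 0.26, limma adjusted p = 5.61e-08). Controls held 4 to 13 angptl2a reads a library. Without KO cryoinjury libraries 1 and 2, its highest, the KO change was 2.83 (limma adjusted p = 7.91e-07).

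angptl4, an inhibitor of lipoprotein lipase in mammals, read 57.5, 82.2, 37.2 and 32.4 units in KO cryoinjury and 49.0, 55.3, 68.0 and 52.6 units in WT cryoinjury libraries. Controls read 9.61, 14.9, 11.4 and 14.1 units in KO and 35.0, 49.7, 19.2 and 27.1 units in WT hearts. It rose by 1.90 in KO hearts (SE 0.27, limma adjusted p = 1.98e-05), where groups were apart, and by 0.83 in WT hearts (SE 0.27, limma adjusted p = 0.0176), where they overlapped. KO cryoinjury libraries 1 and 2 were its highest 2 in that group, and the KO change was 1.42 when both were left out (limma adjusted p = 0.000716). The WT call ended without WT cryoinjury library 3 (0.74, limma adjusted p = 0.0524) or WT control library 3 (0.61, limma adjusted p = 0.0738). angptl1 had 10.5 to 14.9 units in KO cryoinjury and 12.1 to 18.5 units in WT cryoinjury libraries, beside 7.14 to 10.1 in KO control and 4.48 to 9.91 in WT control libraries. Its injured and control libraries did not overlap in either genotype. The angptl1 change passed in WT hearts (0.81, limma adjusted p = 0.00242) and was 0.46 in KO hearts (limma adjusted p = 0.0591), where it passed without KO cryoinjury library 4 or WT control library 2 (limma adjusted p = 0.0464 and 0.0142). It also passed in the fit of the 8 KO libraries alone and with a pseudocount of 10 (limma adjusted p = 0.0271 and 0.0467). angptl7 fell in WT hearts (-0.90, limma adjusted p = 0.0268), was -0.61 in KO hearts (limma adjusted p = 0.123), and lost its WT call without WT cryoinjury library 2 or WT control library 1 (-0.83 and -0.72, limma adjusted p = 0.0664 and 0.0918). In KO hearts angptl7 passed without KO cryoinjury library 3, its highest injured library (-0.98, limma adjusted p = 0.00455). angptl2b did not pass, at 0.27 in KO and 0.08 in WT hearts (limma adjusted p = 0.123 and 0.69), and with KO cryoinjury libraries 1 and 2 left out it passed in KO hearts (0.46, limma adjusted p = 0.0312).

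**Figure D3:**
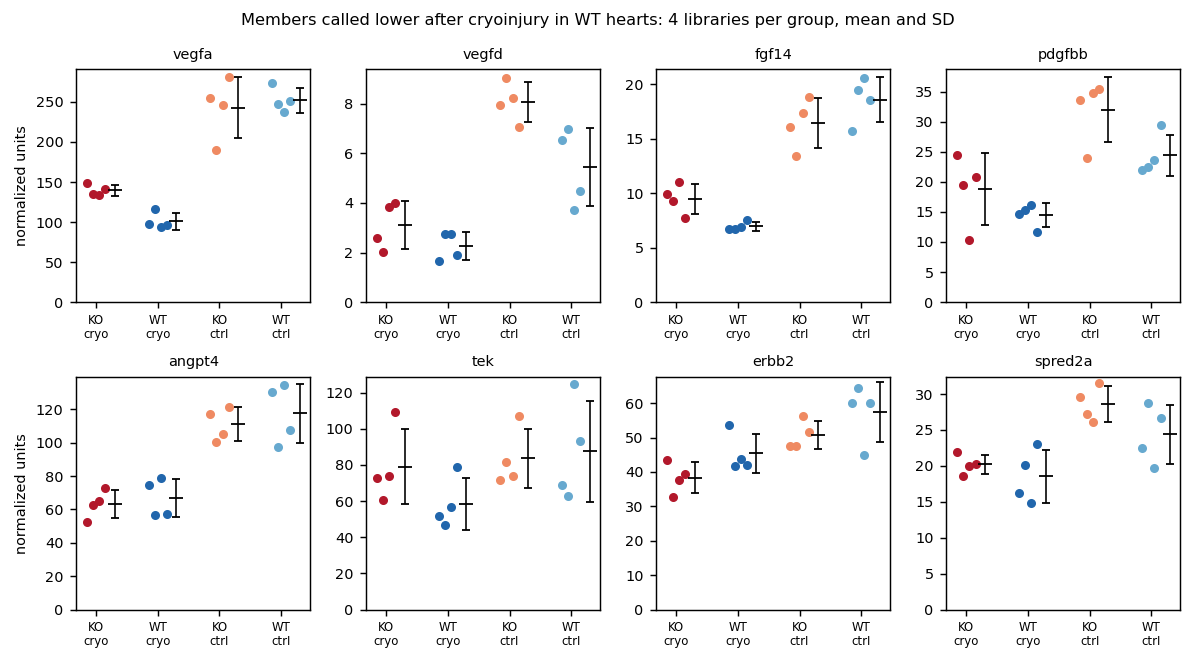
Normalized units in each library for 8 members called lower after cryoinjury in WT hearts, with groups from left as KO cryoinjury, WT cryoinjury, KO control and WT control, points for libraries and bars for the mean and SD (n = 4). The vegfa, fgf14 and angpt4 libraries separate by injury, and tek libraries overlap.

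PDGF ligands recruit mural cells and epicardium-derived cells through receptor pairs. The ligand gene pdgfbb fell in both genotypes. It read 24.4, 19.5, 10.3 and 20.8 units in KO cryoinjury and 14.7, 15.4, 16.2 and 11.7 units in WT cryoinjury libraries, against 33.6, 24.0, 34.8 and 35.5 units in KO control and 21.9, 22.5, 23.7 and 29.4 units in WT control libraries. The groups overlapped by a single library pair in KO hearts and were apart in WT hearts. Its change was -0.78 in KO (SE 0.20, limma adjusted p = 0.00369) and -0.71 in WT hearts (SE 0.20, limma adjusted p = 0.00687). The WT call was lost with no composition correction (-0.37, limma adjusted p = 0.125).

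None of the other PDGF genes among the members passed. The receptor name pdgfrb matched no named gene of the table and was not analysed. The second B ligand gene, pdgfba, was listed at 0 in 3 KO control libraries and 1 KO cryoinjury library and reached at most 4.46 units, in WT cryoinjury library 1. It passed in KO hearts only without KO control library 4, the one with reads (0.98, limma adjusted p = 0.0380). pdgfd stood between 0.884 and 3.45 units and passed in KO hearts without KO cryoinjury library 3 or KO control library 3 (0.66 and 0.65, limma adjusted p = 0.0378 and 0.0449). The receptor gene pdgfra, a marker of epicardium-derived fibroblast-like cells, read 9.45, 8.24, 11.02 and 11.9 units in KO cryoinjury, 11.7, 10.8, 13.7 and 13.2 in WT cryoinjury, 11.1, 19.1, 8.69 and 8.63 in KO control and 11.7, 7.51, 9.52 and 9.27 in WT control libraries. KO control library 2 was its highest, and the change was -0.15 in KO and 0.36 in WT hearts (limma adjusted p = 0.557 and 0.152). Markers of epicardium and epicardium-derived cells were a list of 15 that included pdgfra and matrix genes such as col1a1a, fn1 and tnc. Over the same libraries 12 of the 15 rose and 1 fell in KO hearts, and 11 rose and 1 fell in WT hearts. Which cells these changes came from was not tested. The receptor-like gene pdgfrl changed by 0.43 in KO and 0.53 in WT hearts (limma adjusted p = 0.25 and 0.16).

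In the FGF branch, 3 of 12 genes rose and 1 fell in each genotype. The share that rose was near that of all genes, 25.2% in KO and 24.2% in WT hearts. Of all genes 22.4% fell in KO and 21.7% in WT hearts. The gene that fell, fgf14, encodes an intracellular homolog that in mammals binds sodium channels and does not activate FGF receptors. It read 9.91, 9.25, 11.02 and 7.68 units in KO cryoinjury and 6.68, 6.70, 6.87 and 7.55 units in WT cryoinjury libraries. Controls read 16.1, 13.5, 17.4 and 18.8 units in KO and 15.7, 19.5, 20.6 and 18.5 units in WT hearts. All injured libraries lay below all controls, with changes of -0.74 in KO (SE 0.12, limma adjusted p = 0.000109) and -1.30 in WT hearts (SE 0.12, limma adjusted p = 2.45e-07). Its relative fgf13 was at -0.33 in KO and -0.02 in WT hearts (limma adjusted p = 0.0622 and 0.927), and passed in KO hearts without KO cryoinjury library 3 or WT cryoinjury library 3 (limma adjusted p = 0.0364 and 0.0443).

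The remaining FGF genes did not pass in either genotype. Receptor gene fgfr2 changed by 0.00 in KO and -0.05 in WT hearts, and fgfr4 by -0.22 and -0.18. The decoy-like genes fgfrl1 and fgfrl1b, whose products lack the kinase, had changes of 0.22 and 0.35 in KO hearts and -0.20 and -0.17 in WT hearts. The ligand genes fgf1a and fgf1b were at 5.49 units or less in every library, with changes from -0.39 to 0.04 in KO hearts and -0.10 to 0.03 in WT hearts. With no composition correction fgfr2 would be called higher in WT hearts (0.30, limma adjusted p = 0.0137).

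Neuregulin signals through ERBB receptors. Of the 2 genes measured in this branch, erbb2 was called lower in each genotype and nrg2 in neither. The coreceptor gene erbb2, needed in zebrafish for the mitogenic effect of neuregulin, read 43.5, 32.8, 37.7 and 39.5 units in KO cryoinjury and 53.7, 41.8, 43.8 and 42.1 units in WT cryoinjury libraries. Controls read 47.4, 47.7, 56.3 and 51.6 units in KO and 60.1, 64.4, 44.8 and 60.1 units in WT hearts. The groups were apart in KO hearts and overlapped in WT hearts, and erbb2 changed by -0.40 in KO (SE 0.12, limma adjusted p = 0.0103) and -0.33 in WT hearts (SE 0.12, limma adjusted p = 0.0309). With no composition correction both calls ended, at -0.16 in KO and 0.02 in WT hearts (limma adjusted p = 0.291 and 0.887). The WT call also ended without any single WT library except WT cryoinjury library 1 and WT control library 3, with limma adjusted p up to 0.0944 and a change of -0.27 without WT control library 2. The ligand gene nrg2 lay between 8.54 and 14.3 units over all libraries, at -0.06 in KO and -0.05 in WT hearts (limma adjusted p = 0.75 and 0.793).

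The inhibitors did not move as a block, with 1 of 5 higher and 2 lower in each genotype. Over all genes 25.2% were higher and 22.4% lower in KO hearts, and 24.2% higher and 21.7% lower in WT hearts. spry2 read 13.3, 14.9, 9.68 and 12.8 units in KO cryoinjury and 6.45, 7.55, 9.43 and 10.7 units in WT cryoinjury libraries, against 22.7, 32.2, 23.3 and 21.8 units in KO control and 12.9, 20.7, 16.9 and 14.5 units in WT control libraries. Within each genotype the groups were apart, and spry2 changed by -0.93 in KO (SE 0.17, limma adjusted p = 0.000307) and -0.86 in WT hearts (SE 0.17, limma adjusted p = 0.000592). spry4 had 83.7 to 109 units in KO cryoinjury, 101 to 117 in WT cryoinjury, 76.4 to 132 in KO control and 74.9 to 141 in WT control libraries, and did not pass (-0.17 in KO and 0.18 in WT hearts, limma adjusted p = 0.482 and 0.458).

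Among SPRED genes, spred2 rose by 0.44 in KO and 0.40 in WT hearts (limma adjusted p = 0.0104 and 0.0175). spred2a fell, at -0.48 in KO and -0.38 in WT hearts (limma adjusted p = 0.00704 and 0.0258). Both WT calls are weak: the spred2 call ended without WT control library 2 (0.32, limma adjusted p = 0.0635) or WT cryoinjury library 3 (0.37, limma adjusted p = 0.0502). The spred2a call ended without WT cryoinjury library 1 or 3 or WT control library 2 or 4, with limma adjusted p up to 0.0962. With no composition correction spred2a stood at -0.25 in KO and -0.04 in WT hearts (limma adjusted p = 0.147 and 0.810). spred1 was at 0.16 in KO and -0.23 in WT hearts (limma adjusted p = 0.309 and 0.139), and passed in WT hearts only without WT control library 1 (-0.33, limma adjusted p = 0.0410).

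The 4 genes outside the families were given the same tests. spryd4 changed by -0.39 in KO and -0.58 in WT hearts (limma adjusted p = 0.0659 and 0.00936), and spryd7 (ENSDARG00000069485) by -0.30 and -0.35 (limma adjusted p = 0.0365 and 0.0156). The spryd4 value passed in KO hearts without KO cryoinjury library 3 or KO control library 2. The calls of spryd7 (ENSDARG00000069485) ended in KO hearts without KO cryoinjury library 2, 3 or 4 or KO control library 1 or 3 (limma adjusted p up to 0.106) and in WT hearts without WT control library 4 (limma adjusted p = 0.0513). spryd7 (ENSDARG00000052624) and fgfr1op2 did not pass.

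Several families are present as pairs of gene copies, which allowed a comparison in which the scaling of a library cancels in part. It cancels less for a copy near or under 1 unit, since 1 unit is added before the log. Such low values occurred for angptl2a, hbegf and pdgfba in controls. For 9 pairs of identifiers whose symbols are equal or differ by a copy letter, the log2 ratio of the copies was taken in each library. Its mean change after injury over both genotypes was tested by a 2-sided exact permutation of injury status within genotype. With 4900 arrangements the smallest p is 0.000408, and p-values were also adjusted over the 9 pairs. This test was chosen after the data were seen.

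The ratio changed in 6 of the 9 pairs. No share for other pairs of genes was computed, and nothing particular to these families is read from the count. For hbegf, angptl2a and fgf18 the ratio also largely restates the rise of the copy described above. In the remaining pairs a copy was likewise called by itself in both genotypes. There spred2 rose, and spred2a, pdgfbb and spryd7 (ENSDARG00000069485) fell. The exact p-values of the 6 pairs are therefore not independent of those calls. The ratio of angptl2a to angptl2b rose by 3.06 (3.06 in KO and 3.05 in WT hearts), and that of hbegf to hbegfa by 2.36 (2.50 and 2.22). The ratio of spred2 to spred2a rose by 0.85 (0.92 and 0.79). These 3 pairs reached the smallest exact p of 0.000408 (adjusted p = 0.00122). For fgf18, ENSDARG00000088048 gained on ENSDARG00000043962 by 1.30 (exact p = 0.000816, adjusted p = 0.00184). pdgfba gained on pdgfbb by 1.30 (exact p = 0.00245, adjusted p = 0.00441), with pdgfba at 0 in 4 libraries. For spryd7, outside the families, the change was 0.40 (exact p = 0.00735, adjusted p = 0.011).

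The ratios of fgfr1, fgfrl1 and fgf1 copies did not pass, with changes of 0.37, 0.08 and 0.28 (exact p = 0.0808, 0.535 and 0.307). The fgfr1 ratio depended on settings: with a pseudocount of 0.5 it changed by 0.63 (exact p = 0.0273), without WT cryoinjury library 2 by 0.46 (exact p = 0.0339), without WT control library 2 by 0.43 (exact p = 0.0473) and without WT cryoinjury library 4 by 0.23 (exact p = 0.182). Among the pairs that moved, hbegfa itself read 23.5 to 41.3 units in KO cryoinjury, 21.1 to 31.0 in WT cryoinjury, 25.1 to 79.1 in KO control and 21.2 to 51.0 in WT control libraries, with broad overlap (-0.38 in KO and -0.07 in WT hearts, limma adjusted p = 0.32 and 0.875). The rule for assigning reads that fit both copies of a pair is unknown, so levels of near-identical copies are uncertain.

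**Figure D4:**
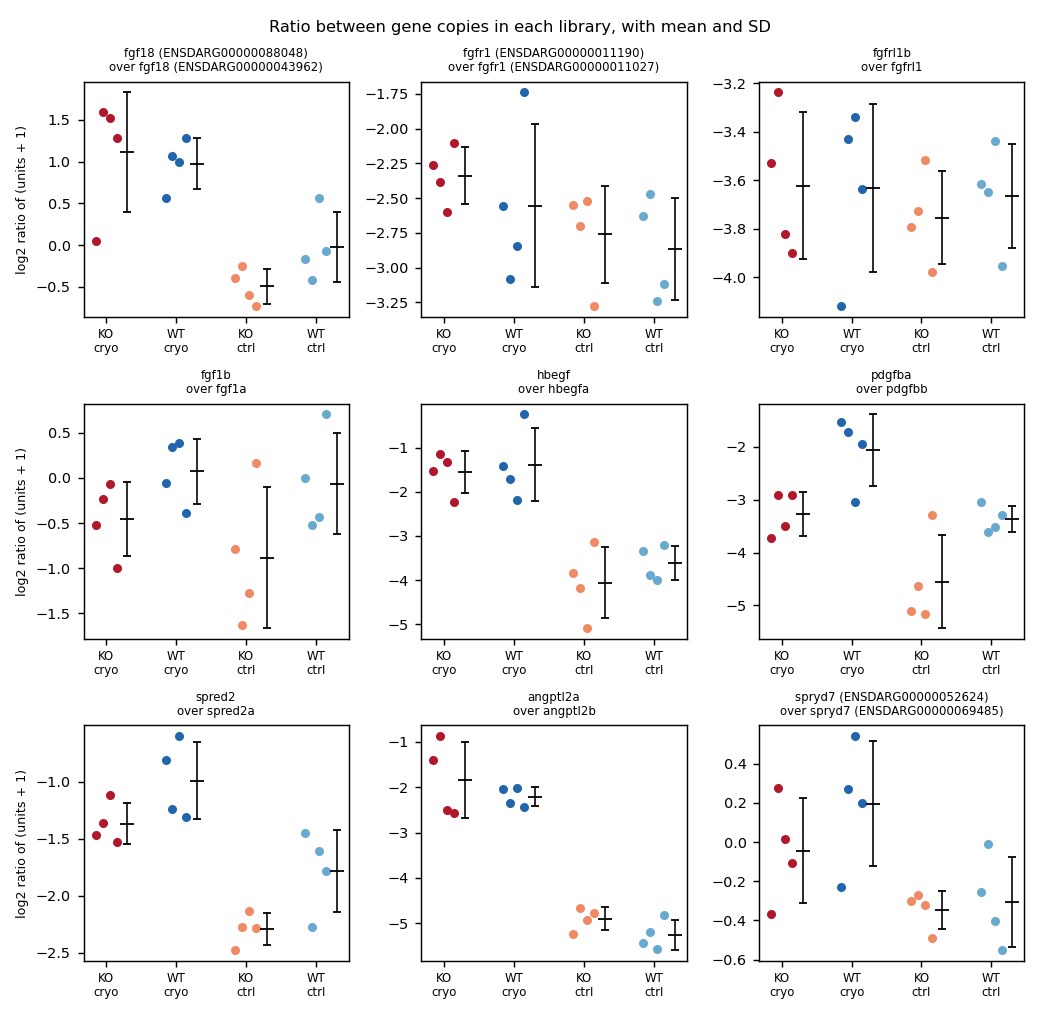
Log2 ratio of (units + 1) between the copies of 9 pairs in each library, with groups from left as KO cryoinjury, WT cryoinjury, KO control and WT control and bars for the mean and SD (n = 4); each panel has its own axis. The ratios of angptl2a to angptl2b and hbegf to hbegfa are higher in every injured library than in every control library.

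Few members differed by genotype. In control hearts 1 of 45 members, 2.22%, was called between KO and WT, while 1.48% of all genes were (0.407% higher and 1.08% lower in KO). That member was angptl4, at 12.5 ± 2.46 units in KO control and 32.7 ± 13.01 units in WT control hearts (SD, n = 4 each). The 4 KO libraries lay below the 4 WT libraries, with a difference of -1.26 (SE 0.27, limma adjusted p = 0.0282). This call is fragile: it ended in 9 alternatives, among them voom (-1.31, limma adjusted p = 0.0846), the fit of the 8 control libraries alone (-1.26, limma adjusted p = 0.0539) and the fits without any 1 control library other than KO control library 4 and WT control library 3 (limma adjusted p up to 0.0916).

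In injured hearts none of 45 members was called by limma, while 0.441% of all genes were, 0.29% higher and 0.152% lower in KO. At an unadjusted p under 0.05 there were 5 of the 45 members, beside 1768 of all 14500 genes. Among the members edgeR called none and DESeq2 called vegfa. For vegfa the 4 KO cryoinjury libraries, 134 to 149 units, lay above the 4 WT cryoinjury libraries, 94.3 to 116 units, by 0.47 (SE 0.10, limma adjusted p = 0.0578). The adjusted p was 0.00561 in DESeq2 and 0.0528 in edgeR, and 0.0490 in limma when genes under a mean of 5 units were left out. Over the alternatives it ranged from 0.00561 to 0.215, the highest without KO cryoinjury libraries 1 and 2, and vegfa was called without KO control library 2 or 4 (limma adjusted p = 0.0152 and 0.0431). Libraries of KO lay above those of WT for 2 members in injured hearts, vegfa and fgf14, and for 2 in control hearts, spry2 and vegfd, beside 3.84% and 3.74% of all genes. In control hearts the KO and WT vegfa libraries overlapped (-0.07, limma adjusted p = 0.815).

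Averaged over injured and control hearts, a comparison added after the data were seen, 3 members were called, 6.67% of the 45, while 3.57% of all genes were. Of all genes 1.4% were higher and 2.17% lower in KO. The FGF receptor gene fgfr2 was lower in KO in both states. It read 46.5, 40.9, 43.4 and 49.3 units in KO cryoinjury against 51.6, 59.3, 57.8 and 60.6 units in WT cryoinjury libraries. In controls it read 50.6, 40.3, 38.7 and 51.0 units in KO against 64.5, 56.1, 54.1 and 62.7 units in WT libraries. KO and WT libraries did not overlap in either state, and the averaged difference was -0.37 (SE 0.07, limma adjusted p = 0.0106). By state it was -0.34 in injured and -0.39 in control hearts (limma adjusted p = 0.166 and 0.0624). In control hearts it passed in DESeq2 (adjusted p = 0.0184) and without KO control library 4 (-0.46, limma adjusted p = 0.0333). Over 26 alternatives the averaged call held, with an adjusted p of at most 0.0499. Libraries of KO and WT did not overlap, KO lower, for 4.01% of all genes in injured hearts and 3.99% in control hearts.

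The inhibitor gene spry2 was higher in KO, by 0.56 on average (SE 0.12, limma adjusted p = 0.0195). Its libraries overlapped in injured hearts (0.53) and not in control hearts (0.60), where the means were 25.0 ± 4.84 units in KO and 16.2 ± 3.39 units in WT (SD, n = 4 each). In control hearts DESeq2 called spry2 (adjusted p = 0.0481). The averaged difference was 0.48 when KO cryoinjury libraries 1 and 2 were left out (limma adjusted p = 0.0976). angptl4 was lower in KO, at -0.72 on average (SE 0.19, limma adjusted p = 0.0453), a call that ended in 17 of 26 alternatives. With KO cryoinjury libraries 1 and 2 left out it was -0.96 on average (limma adjusted p = 0.0179), and -0.67 in injured hearts, where it was -0.19 with all libraries (limma adjusted p = 0.377 and 0.84). The genotype and injury comparisons use the same libraries and are not independent of each other.

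**Figure D5:**
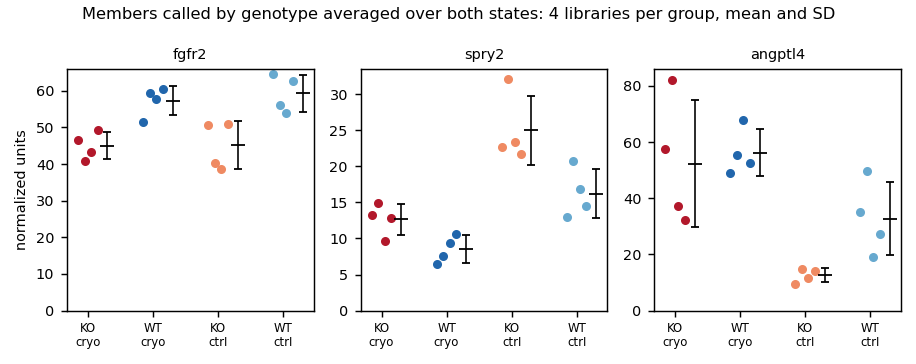
Normalized units of fgfr2, spry2 and angptl4 in each library, with groups from left as KO cryoinjury, WT cryoinjury, KO control and WT control and bars for the mean and SD (n = 4). KO libraries of fgfr2 lie below WT libraries in both states, and those of angptl4 lie below WT in control hearts.

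The response to injury was not shown to differ between genotypes for any member. In the interaction, 0 of 45 members and 0% of all genes passed in limma. edgeR and DESeq2 called 0 members too. At an unadjusted p under 0.05 there were 4 of the 45 members, beside 1191 of all 14500 genes. The member with the smallest adjusted p was vegfa, whose response in KO minus that in WT was 0.54 (SE 0.15, limma adjusted p = 0.384). For fgf14 it was 0.56 (limma adjusted p = 0.426), for angptl4 1.07 (limma adjusted p = 0.509) and for tek 0.46 (limma adjusted p = 0.722). With KO cryoinjury libraries 1 and 2 left out the values were 0.51 for vegfa, 0.53 for fgf14, 0.59 for angptl4 and 0.67 for tek (limma adjusted p = 0.308, 0.385, 0.596 and 0.528).

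Genes that carry the signal onward were followed from 3 lists. The first list held 17 further genes: ligands, receptors and coreceptors, and also 2 identifiers named adam17, lrig1 and lrig3, which are none of these. Of the 17, 6 rose and 2 fell in KO hearts and 6 rose and 4 fell in WT hearts. Called were 47.1% in KO and 58.8% in WT hearts, beside 47.6% and 45.9% of all genes. The macrophage growth factor gene csf1a changed by 2.04 in KO and 2.24 in WT hearts (limma adjusted p = 6.8e-08 and 2.43e-08), and the heparan sulfate proteoglycan gene gpc1b, whose product can bind FGFs, by 1.53 and 1.16 (limma adjusted p = 4.67e-05 and 0.000618). Of 45 adaptors and members of the RAS-ERK and PI3K relay, 11 rose and 6 fell in KO hearts. In WT hearts 12 rose and 6 fell, and the median log2 changes were 0.04 and 0.00. Of these 45 genes 37.8% and 40% were called, a smaller share than over all genes. Among them the ERK-activated kinase gene rps6ka1 rose by 1.11 and 0.94, and stat3 by 0.83 and 0.83 (limma adjusted p of at most 1.59e-05). The RAS gene hras fell, at -0.82 and -0.68 (limma adjusted p = 0.000577 and 0.00249).

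Of the 17 ERK feedback and target genes, 6 were higher and 1 lower in KO hearts, and 6 were higher and none lower in WT hearts. Called were thus 41.2% and 35.3%, beside 47.6% and 45.9% of all genes. By direction, 25.2% of all genes were higher and 22.4% lower in KO hearts, and 24.2% higher and 21.7% lower in WT hearts. The AP-1 gene fosl1 averaged 20.0 ± 5.41 units in KO cryoinjury, 32.6 ± 4.27 in WT cryoinjury, 2.37 ± 1.28 in KO control and 6.998 ± 2.16 in WT control hearts (SD, n = 4 each). It rose by 2.67 in KO and 2.101 in WT hearts (limma adjusted p = 2.93e-07 and 3.7e-06), and the ERK phosphatase gene dusp5 by 1.25 and 1.43 (limma adjusted p = 8.54e-05 and 1.91e-05). Some classical FGF readout genes were picked after their values were seen, and etv5a, also in the list, was not among them. Of those picked, dusp6 had 0.20 and -0.25, etv4 0.25 and 0.10, and etv5b 0.39 and 0.16, in KO and WT hearts in that order. Being picked on their values, they do not show how FGF target genes moved as a group. Of these 3 genes only etv5b passed, and in KO hearts only (limma adjusted p = 0.0433; 0.426 in WT). The difference between the genotypes in its response did not pass (limma adjusted p = 0.811).

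By genotype, 1 of the 45 relay genes was called in control hearts, pik3r1 (-0.51, limma adjusted p = 0.0239), and 1 in injured hearts, ptpn11b (-0.40, limma adjusted p = 0.042). Both were lower in KO. Each is 2.22% of the list, beside 1.48% of all genes in control and 0.441% in injured hearts. Of the 17 ERK feedback and target genes, 17.6% were called in control hearts and 0% in injured hearts. In control hearts the early gene egr1 was higher in KO by 1.805 and ier2b by 1.201, and fosl1 was lower, at -1.29 (limma adjusted p = 0.03, 0.042 and 0.0185). None of the 17 genes of the first list was called by genotype in either state.

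Markers of other cells moved with injury beside the members. Their counts stand beside 25.2% of all genes higher and 22.4% lower in KO hearts, and 24.2% and 21.7% in WT hearts. Macrophage markers, 13 of 14 higher in each genotype, summed to 1542 to 1824 units in KO cryoinjury, 1786 to 1998 in WT cryoinjury, 529 to 684 in KO control and 514 to 725 in WT control libraries. Markers of epicardium and epicardium-derived cells, matrix genes included, summed to 9289.7 to 12020.2 units in KO cryoinjury, 9707 to 11633 in WT cryoinjury, 3484 to 3758 in KO control and 3511 to 4918 in WT control libraries. All 8 markers of cycling cells rose in each genotype. Skin and epithelial markers, 4 of 7 higher in KO and 3 of 7 in WT hearts, were at 1485 to 2754 units in KO cryoinjury, 1416 to 1715 in WT cryoinjury, 533 to 717 in KO control and 609.6 to 699.5 in WT control libraries. The median log2 change of these 7 genes was 1.75 in KO and -0.10 in WT hearts, so the WT sums do not stand for the list as a whole. Neutrophil markers, 5 of 6 higher in KO and 3 of 6 in WT hearts, summed to 119.7 to 787 units in KO cryoinjury, 82.9 to 132 in WT cryoinjury, 34.3 to 40.4 in KO control and 30.6 to 153 in WT control libraries, the highest being KO cryoinjury library 2. Mural and smooth muscle markers had 3 of 7 higher in KO hearts, and 2 higher and 3 lower in WT hearts. Thrombocyte and red cell markers had 1 of 9 higher and 3 lower in KO hearts and 1 higher and 1 lower in WT hearts. No matched marker was at 0 in all libraries of a group, and the part of these cells in the changes of the members was not tested.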

How the data were processed

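Libraries of polyadenylated RNA, from hearts pooled by 3, were made with the TruSeq RNA v2 kit, per the labels' protocols. Tools in the submitters' processing notes were RSEM 1.2.3, cutadapt and CASAVA 1.8.2, with build Zv9 and no roles given. Strand use in counting is not given, so antisense reads cannot be told apart. The deposited values are a normalized signal per gene, scaled by the authors in a way not given in the sources used here. In every library 100% of values were whole multiples of 1 step, within 0.01 read, so reads could be recovered; 1 read was worth 0.06 to 0.1961 units. Depth was 5611576 to 14831664 reads.

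Symbols came from a table of gene names. List names were matched exactly or without a final copy letter, and the 3 pathway and 9 cell-type lists matched 6 to 45 genes each. The members and lists were chosen with earlier results of these data known. Members were named by smallest p or highest mean in their branch, or as the other copy of a named member, and list genes as the up to 4 with the smallest p. Exceptions are stated.

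In R 4.3.3, log2(units + 1) was modelled with trended limma 3.58.1 over all 16 libraries and 14500 genes, with 12 residual degrees of freedom, for injury in each genotype, genotype in each state and their interaction. Genotype averaged over states was added after the data were seen. The edgeR 4.0.16 quasi-likelihood test, the DESeq2 1.42.0 Wald test and voom on recovered reads, other scalings, filters, pseudocounts of 0.5 and 10 and leaving out libraries were alternatives. On recovered reads edgeR called 6763 genes for injury in KO hearts and 6741 in WT hearts, 176 for genotype in control and 84 in injured hearts. The labels call the libraries biological replicates; chi-square per degree of freedom between them was 6.7 to 18.8, so none was a copy of another. The limma script was tested on simulated data.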

Additional observations from a re-analysis of the deposited data

Results flagged for a closer look

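Within groups of 4 libraries, a single library stood apart by Dixon's criterion in 8 of the 100 groups tested over the 25 members called in any comparison, where chance gives about 1 in 20. The libraries high in their group were KO cryoinjury library 2 for met (5.35 units, 37 reads), KO control library 2 for spry2 (32.2 units), WT cryoinjury library 2 for vegfa (116 units), KO cryoinjury library 3 for angptl7 (3.84 units, 23 reads), WT cryoinjury library 1 for erbb2 (53.7 units) and WT cryoinjury library 1 for spryd7 (ENSDARG00000069485) (15.7 units). The libraries low in their group were KO control library 2 for pdgfbb (24.0 units) and WT control library 2 for spryd7 (ENSDARG00000069485) (14.2 units). KO cryoinjury library 2 also had the highest krt5, at 887 units. No member passed the test of a difference between genotypes in its response to injury.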

How the results depend on the processing

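Over 27 alternatives, 29 of the 47 member calls held in every fit that tested the gene. Of the 18 that did not, 3 were lost only when 1 library was left out. Genes without an adjusted p in a fit were not counted as lost there. The filter at a mean of 5 units left out the called members fgf18 (ENSDARG00000088048), fgfr1 (ENSDARG00000011190), met, vegfd and angptl7. Alternatives other than leaving out 1 library gave 15 to 22 members for injury in KO hearts and 19 to 24 in WT hearts. Leaving out each library in turn gave 18 to 23 members called for injury in KO hearts, 18 to 24 for injury in WT hearts, 0 to 2 for genotype in control hearts, 0 to 1 for genotype in injured hearts, 0 for the interaction and 2 to 4 for genotype averaged over states. For genotype in control hearts, with 1 member called, DESeq2 called 3 (angptl4, fgfr2 and spry2) and the replicate block 2 (angptl4 and fgfr2, limma adjusted p of fgfr2 0.0372), and the fit of 8 libraries, a pseudocount of 10 and voom called 0. For genotype in injured hearts, with 0 called, DESeq2 and the filter at a mean of 5 units each called 1, vegfa. With library totals and no composition correction, 3 changes in WT hearts reversed: fgfr2 became 0.30, angpt1 0.024 and erbb2 0.024. The cause of these shifts was not tested. Among copy ratios, that of the fgfr1 copies was 0.63 with a pseudocount of 0.5 (exact permutation p = 0.0273) and 0.37 with 1 (exact permutation p = 0.0808), and leaving out 1 library gave 0.23 to 0.46, past the threshold without WT cryoinjury library 2 or WT control library 2; the other 8 kept their side of the threshold. Library numbers shared between groups were not shown to pair samples, and a pairing was not excluded. Of 24 same-number pairs, 5 had a correlation of deviations over 0.1, in a range of -0.067 to 0.221. Among the 4 numbers, 8 of 16 libraries were closest to their own. The replicate block called 20 members for injury in KO hearts, fgf13 added (limma adjusted p = 0.0474), and 24 in WT hearts, and for averaged genotype it added angptl2b (limma adjusted p = 0.0493). The fit of 8 libraries lost spred2a, tek and erbb2 in WT hearts, and DESeq2 lost spryd7 (ENSDARG00000069485) in KO hearts. Genes under about 10 reads a library, such as met, pdgfba and fgfr1 (ENSDARG00000011190) in controls, are limited by depth.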
